A study of Oryza sativa with 46 samples.

Results

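The light-harvesting chlorophyll binding proteins of rice were examined across 8 genotypes with and without salt. The set comprised 9 loci chosen by a list of locus codes: Os01g0600900, Os01g0720500, Os02g0764500, Os03g0592500, Os04g0457000, Os07g0558400, Os07g0562700, Os09g0346500 and Os11g0242800. All 9 were on the array, of 29689 loci named there by such a code, and they carried 45 of its 42477 probes. Os07g0562700 had 11 probes, Os07g0558400 had 7, Os01g0720500 and Os09g0346500 had 6 each, Os03g0592500 had 5, Os01g0600900 and Os11g0242800 had 3 each, and Os04g0457000 and Os02g0764500 had 2 each. The study's own tables annotate 3 of the loci. They give Os09g0346500 as chlorophyll a-b binding protein 1 (LHCII type I CAB-1), Os03g0592500 as a photosystem II type II chlorophyll a/b binding protein, and Os07g0558400 as the precursor of the chlorophyll a/b-binding protein CP29. The other 6 are called here by their codes as listed antenna loci, since the sources used here do not annotate them.

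Light-harvesting proteins are encoded in the nucleus, imported into the chloroplast and inserted into the thylakoid membrane, where they bind chlorophyll a and b and pass excitation energy to the photosystem reaction centres. The trimeric LHCII complex is the main antenna of photosystem II. CP29 is a minor, monomeric antenna protein that links LHCII to the photosystem II core. The transcripts of this family are abundant in green tissue, are induced by light and vary over the day, and the members have similar sequences, so that a probe of one member may also bind the transcript of another, which was not tested here.

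Total RNA of whole rice seedlings was hybridised to one-color Agilent oligonucleotide arrays, with 1 seedling per array, and 46 arrays were used here. Seedlings were grown singly in flasks of Yoshida nutrient solution, with CaCl2 added along with the salt, and were sampled at 16 days after emergence, after 48 h in 120 mM NaCl (23 arrays) or at 0 mM (23 arrays). By the study's list, Pokkali, an indica landrace, is tolerant, PSBRc50 and IR58 (indica) and Banikat (japonica) are moderately tolerant, and BRRIdhan 29 (indica), Nipponbare (japonica) and the wild species Oryza latifolia and Oryza rufipogon are susceptible. Each genotype had 3 arrays per treatment, except that BRRIdhan 29 had 2 at 120 mM and IR58 had 2 at 0 mM. The seedling was the replicate. For heavier seedlings, pieces of root, stem and leaf were taken to stand for the whole, so the share of green tissue may differ between samples, and in such bulk RNA fewer green cells and less transcript per cell cannot be told apart.

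The number of probes well above background ran from 20914 to 36693 on the 46 arrays, no spot was saturated, and the number of arrays limits the precision. On 5 of the 6 O. latifolia arrays only 20914 to 23526 probes were so, against at least 26898 on every other array. For 8 arrays, 4 at 120 mM and 4 at 0 mM, the profile over all probes lay nearer to another genotype than to the one in the label: their correlation with the labelled genotype was between −0.09 and 0.10 and with the nearest one 0.42 to 0.84, whereas it was 0.23 to 0.93 with the label on the other 38 arrays. These arrays were labelled PSBRc50 120 mM replicate 3, IR58 0 mM replicate 2, BRRIdhan 29 0 mM replicate 2, Banikat and Nipponbare replicate 3 at both concentrations, and O. latifolia 120 mM replicate 2. The labels were kept as given, and results that rest on these arrays are given with and without them. The fit without them leaves IR58 with 1 array at 0 mM, which is assumed to vary like the other groups. The arrays lay on 12 slides, and each slide held both treatments of at least 1 genotype.

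Of the 45 light-harvesting probes, 41 were well above background on all 46 arrays. The exceptions were both probes of Os02g0764500 and probe AK119534 of Os07g0558400, each well above background on 21 of 23 arrays at 120 mM and 20 of 23 at 0 mM, and probe AK060851 of Os09g0346500, at 21 of 23 in both. All values below are quantile-normalized log2 signals, on which 1 unit is a 2-fold difference. Each locus is represented by its probe with the highest mean signal. Quantile normalization gives all arrays the same set of values, which leaves little room to the brightest probes: probe AK061619 of Os01g0600900 took only 17 different values on the 46 arrays, with a range of 1.79, where scaling each array to its 75th percentile gave a range of 4.00.

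The first comparison asked whether the antenna loci differed between salt-stressed and unstressed seedlings on average over the genotypes. Of the 45 probes, 39 had a mean salt effect below 0 and 6 above 0, with a median of −0.25 log2 units, but none passed the test. By limma with Benjamini-Hochberg adjustment over all probes, 0 of the 45 were called, against 1.94% of all 42477 probes (824), and the lowest adjusted p was 0.17. At an unadjusted p under 0.05 there were 6 (13.3%), all lower under salt, against 18.1% of all probes. Over all probes the median was −0.01 and 51.5% were below 0.

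**Figure D1:**
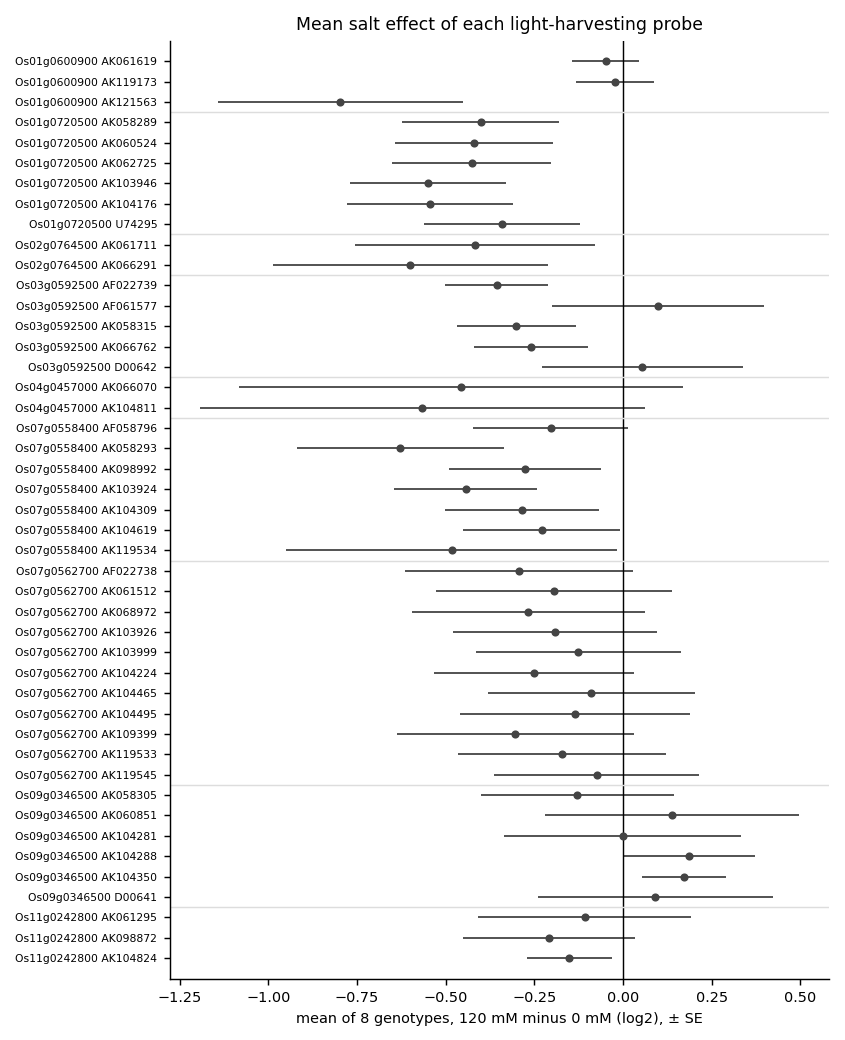
Mean salt effect of the 45 light-harvesting probes (120 mM minus 0 mM NaCl, averaged over 8 genotypes, log2 units) with its standard error, grouped by locus. Points lie left of 0 for 39 of the 45 probes, and no probe passed an adjusted p of 0.05.

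Of the 3 annotated loci, LHCII type I (Os09g0346500) was the one with most probes above 0, 4 of 6. Its probe AK104350 ranged from 17.01 through a median of 17.66 to 18.06 on the 120 mM arrays and from 16.61 through 17.58 to 18.27 on the 0 mM arrays. The ranges overlapped throughout, and the mean salt effect was 0.17 ± 0.12 (SE, 8 genotypes, adjusted p = 0.48). The 6 probes of this locus lay between −0.13 and 0.19. For the type II protein of photosystem II (Os03g0592500), probe AF022739 had 15.29, 16.98 and 17.66 (lowest, median, highest) at 120 mM, against 15.31, 17.35 and 17.91 at 0 mM. The group mean at 120 mM was the lower one in 6 of 8 genotypes, with a mean salt effect of −0.36 ± 0.15 (adjusted p = 0.18), while probes AF061577 and D00642 of the same locus gave 0.10 ± 0.30 and 0.05 ± 0.28. CP29 (Os07g0558400) had 12.46, 15.91 and 16.85 at 120 mM, against 13.70, 16.41 and 17.06 at 0 mM for probe AK098992. All 7 probes of CP29 lay below 0, between −0.63 and −0.20, and the lowest adjusted p among them was 0.23.

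Among the 6 listed loci without annotation, Os01g0720500 had 6 probes, all below 0. They lay between −0.55 and −0.34 and their signals correlated at 0.97 or more over the 46 arrays. Probe AK103946 had 13.43, 15.97 and 17.06 at 120 mM, against 14.04, 16.51 and 17.28 at 0 mM (mean salt effect −0.55 ± 0.22, adjusted p = 0.17). For Os07g0562700 the 11 probes were between −0.30 and −0.07, for Os11g0242800 the 3 probes between −0.21 and −0.11, and for Os02g0764500 both were below 0, at −0.60 ± 0.39 for AK066291 and −0.42 ± 0.34 for AK061711. Os04g0457000 had the widest error, −0.57 ± 0.63 for AK104811. The probes of Os01g0600900 did not move alike: AK061619 gave −0.05 ± 0.09 and AK119173 gave −0.02 ± 0.11, while AK121563 gave −0.80 ± 0.35 (adjusted p = 0.21).

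The mean over genotypes depended on single genotypes. Without BRRIdhan 29 the median over the 45 probes was −0.04, and 27 were below 0. Without Banikat, where the values ran the other way, 5 probes were called, all lower under salt: 2 of Os01g0720500 and 1 each of Os01g0600900, Os03g0592500 and CP29. Leaving out only the array labelled O. latifolia 120 mM replicate 2 gave 3 calls, all of Os07g0562700, which lay at −0.56 to −0.60. The share of all probes called in these fits is not given here, so neither count can be set against it. Without the 8 arrays nearer another genotype the median was −0.33, with 36 of 44 probes below 0 (1 probe could not be fitted). That fit called 0 light-harvesting probes and 2.39% of all probes, with 18 of the 44 (40.9%) below 0.05 before adjustment, against 14.6% of all probes.

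Next, the salt effect was taken within each genotype. The sign was shared by most antenna probes of a genotype, and the medians lay on both sides of 0. All 45 probes lay lower at 120 mM in BRRIdhan 29 (median −1.49, range −5.49 to −0.19) and in O. rufipogon (median −0.77, range −2.97 to −0.15). In PSBRc50 43 of 45 were lower (median −0.61) and in IR58 39 (median −0.56). In the japonica genotypes all 45 probes were higher at 120 mM, with a median of 0.52 in Banikat and 0.37 in Nipponbare. In Pokkali 32 probes were lower, with a median of −0.14. In O. latifolia 34 were higher (median 0.25), and without the array labelled 120 mM replicate 2 this turned to 39 lower (median −0.70). With scaling to the 75th percentile in place of quantile normalization the medians kept these signs except in O. latifolia, where it was −0.08 over all 6 arrays. The size moved most in Pokkali, to −0.40 (91.1% of the probes lower), and in IR58, to −0.15 (75.6% lower), which turned their order round, and 88.9% were lower in O. rufipogon. Over all probes of the array the median stayed between −0.13 and 0.02 in every genotype with quantile normalization. With 75th-percentile scaling it ran from −0.06 in Banikat to 0.13 in O. rufipogon, and it was 0.09 in IR58.

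None of these within-genotype differences was called. The test found 0 of 45 light-harvesting probes in each of the 8 genotypes, where the share of all probes called was 0.00235% in Pokkali, 0.00% in PSBRc50, 0.00235% in IR58, 0.00471% in BRRIdhan 29, 0.00% in Banikat, 0.0118% in Nipponbare, 4.00% in O. latifolia and 0.101% in O. rufipogon. At an unadjusted p under 0.05 there were 19 of the 45 in BRRIdhan 29 (42.2%), against 7.20% of all probes. With all 46 arrays the share in the other genotypes was below that of all probes. There were 4 in O. latifolia (8.89%, against 22.4%), 3 in Banikat (6.67%, against 7.46%) and 2 in IR58 (4.44%, against 8.43%). Nipponbare had 1 (2.22%, against 4.33%), O. rufipogon 1 (2.22%, against 7.70%), and Pokkali and PSBRc50 0 (against 2.43% and 5.29%). This depended on the 8 arrays nearer another genotype. Without them the share was above that of all probes in Banikat, PSBRc50, O. rufipogon, Nipponbare and O. latifolia as well, and stayed 0 in Pokkali. IR58 is not listed, because without them it had only 1 array at 0 mM. The medians were then 1.24 in Banikat, −0.99 in PSBRc50, 0.70 in Nipponbare, −0.70 in O. latifolia and −0.77 in O. rufipogon. Without the 8 arrays nearer another genotype, 1 probe was called in BRRIdhan 29 (1.28% of all probes) and 3 in Banikat (8.02% of all probes).

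**Figure D2:**
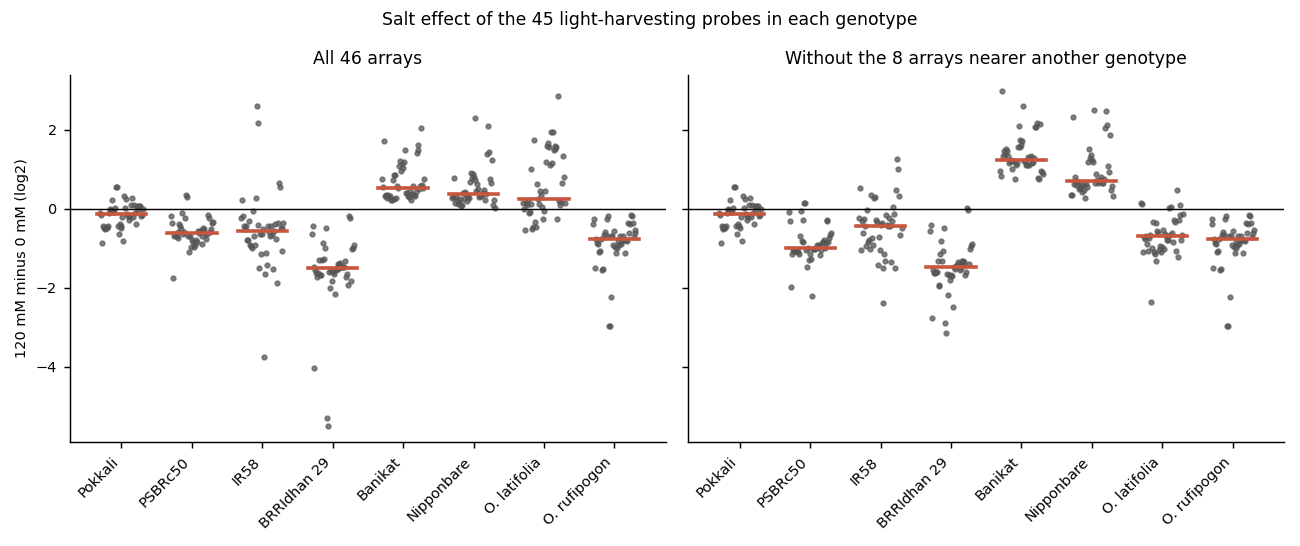
Salt effect (120 mM minus 0 mM, log2 units) of each of the 45 light-harvesting probes in the 8 genotypes, with all 46 arrays and without the 8 arrays nearer another genotype. Red bars mark the median over probes, which with all arrays runs between −1.49 in BRRIdhan 29 and 0.52 in Banikat.

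All 45 probes lay lower at 120 mM in BRRIdhan 29 and higher in Banikat, and 1 of them is AK121563 of Os01g0600900. In BRRIdhan 29 it read 8.27 and 10.15 at 120 mM, against 11.70, 15.76 and 12.26 at 0 mM. The value of 15.76 belongs to the array that lies nearer IR58, and both stressed seedlings lay below all 3 unstressed ones. In Banikat it read 12.44 and 12.27 on the first 2 arrays at 120 mM, and the replicate 3 array lay between the 10.64 and 11.51 read at 0 mM, where replicate 2 read 8.12. The groups thus overlapped, and replicate 3 of Banikat lies nearer Nipponbare at both concentrations. Without the arrays nearer another genotype this probe was called in both directions, at −2.77 ± 0.69 in BRRIdhan 29 (adjusted p = 0.042) and 2.98 ± 0.69 in Banikat (adjusted p = 0.0080). Each of these contrasts then rests on 2 arrays per group.

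For CP29, the representative probe AK098992 gave the same picture. It read 14.37 and 15.85 in BRRIdhan 29 at 120 mM, against 16.52, 16.51 and 17.06 at 0 mM, without overlap. In Nipponbare it read 16.36, 16.77 and 16.51 at 120 mM, against 15.10, 15.47 and 16.75 at 0 mM, and in Banikat 16.85, 16.44 and 16.51, against 16.10, 14.05 and 16.79. Banikat 0 mM replicate 2 was the lowest unstressed array of Banikat for all 9 representative probes. Without the 8 arrays, Banikat at 0 mM rests on this array and replicate 1, so its salt effects there lean on 1 low array. Probe AK103924 of CP29 read 13.59 on it and 15.80 on replicate 1, against 16.61 and 16.26 at 120 mM. Probe AK060851 of LHCII type I read 12.97 and 14.03, against 15.66 and 15.51. Without the 8 arrays, probe AK103924 of CP29 and probe AK060851 of LHCII type I were the other 2 called in Banikat, at 1.75 ± 0.52 (adjusted p = 0.037) and 2.08 ± 0.65 (adjusted p = 0.047).

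Whether the salt effect itself differed between the genotypes was tested with an F test over the 8 genotypes. With all 46 arrays it called 0 of the 45 probes and 0.600% of all probes, with a lowest adjusted p of 0.26 among the antenna probes and 7 at an unadjusted p under 0.05 (15.6%, against 11.3% of all probes). Without the 8 arrays it called 20 of 44 antenna probes, against 13.6% of all probes. These were all 7 probes of CP29, 9 of the 11 of Os07g0562700, 2 of the 6 of LHCII type I, and 1 each of Os01g0600900 and Os03g0592500. None of the probes of Os01g0720500, Os02g0764500, Os04g0457000 and Os11g0242800 was among them. Leaving out Banikat 0 mM replicate 2 as well lowered the count, whereas keeping it and fitting the slide as a block did not. The share of all probes called in those fits is not given here, so their counts cannot be set against it.

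The slides allowed a second view, since 22 pairs of arrays held both treatments of a genotype side by side. In 17 of the 22 pairs the median over the 45 probes was below 0, and in 13 of the 17 pairs without an array nearer another genotype. Both such pairs of BRRIdhan 29 had medians below 0 (−1.69 and −1.21), as did all 3 of O. rufipogon (−0.67, −0.54 and −0.79), both of PSBRc50 (−1.41 and −0.48), both of O. latifolia (−0.82 and −0.61) and the 1 of IR58 (−0.50). The 3 pairs of Pokkali had −0.05, −0.04 and −0.50. Among these 17, the 4 pairs above 0 were those of Banikat (0.59 and 2.06) and Nipponbare (0.81 and 0.72). The third pairs of Banikat (−0.73) and Nipponbare (−0.27) hold arrays nearer another genotype and went the other way. Both arrays of that Banikat pair lie nearer Nipponbare. The remaining pairs with such an array were those of IR58 (−0.87), PSBRc50 (−0.01) and O. latifolia (2.88). The japonica genotypes shared their scan days with both wild species and none with the indica genotypes, so that scan day cannot be told apart from a difference between japonica and indica.

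The tolerance classes were compared next. For the salt effect in the 4 tolerant and moderately tolerant genotypes minus that in the 4 susceptible ones, 0 of 45 probes and 0.0118% of all probes were called, with 2 of the 45 below 0.05 before adjustment (4.44%, against 1.90% of all probes). The difference was below 0 in 16 of the 45 probes (median 0.17), in 2 of 44 without the 8 arrays (median 0.44) and in 2 of 45 without O. latifolia (median 0.39), and again none was called. The largest estimates were those of Os04g0457000, 2.95 ± 1.25 for AK066070 and 2.90 ± 1.25 for AK104811, with an adjusted p of 1.00. Without the 8 arrays both probes gave 1.92 ± 1.32. In both classes the genotypes disagreed in sign: Banikat lay above 0 among the moderately tolerant ones and Nipponbare among the susceptible ones.

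**Figure D3:**
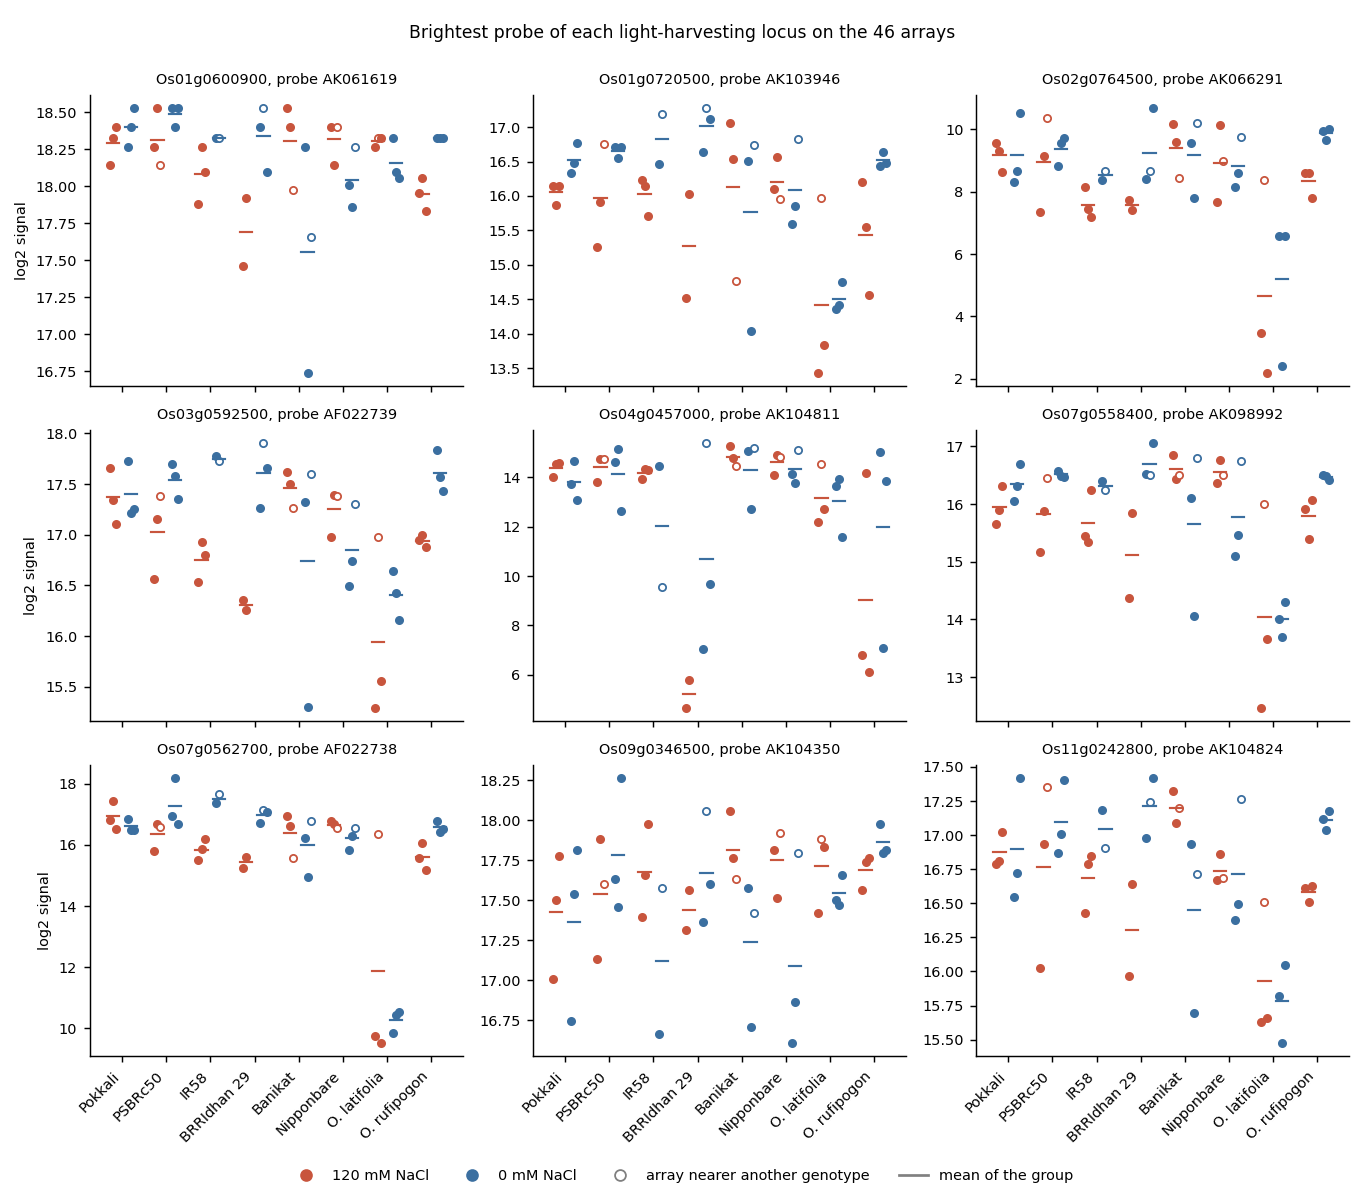
Quantile-normalized log2 signal of the brightest probe of each of the 9 loci on the 46 arrays, by genotype, with 120 mM NaCl (red) left of 0 mM (blue), bars at group means and open circles for the 8 arrays nearer another genotype. The 5 other O. latifolia arrays lie far below the rest for Os07g0562700, between 9.51 and 10.54.

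The levels of the antenna probes differed between genotypes at both concentrations. By the F tests, 38 of 45 probes were called at 0 mM (61.9% of all probes) and 32 at 120 mM (40.3% of all probes). The count at 120 mM was 0 without replicate 1 and 1 without replicate 3, both of which keep the array labelled O. latifolia 120 mM replicate 2 in a group of 2. Without O. latifolia 1 of 45 probes was called at 0 mM, where 7.13% of all probes were, and 4 at 120 mM, against 7.02% of all probes. The 1 at 0 mM was probe AK060851 of LHCII type I (adjusted p = 0.040). At 120 mM it was called again (adjusted p = 0.017), together with both probes of Os04g0457000 (adjusted p = 0.0052 and 0.0055) and AK066762 of Os03g0592500 (adjusted p = 0.036). With all genotypes and 75th-percentile scaling, 27 of 45 probes were called at 0 mM and 26 at 120 mM. Under this scaling 60% had an unadjusted p under 0.05 at 0 mM, below the 68.9% of all probes. With quantile normalization this share was 86.7%, above the 66.4% of all probes. At 120 mM it stayed above with 75th-percentile scaling (64.4%, against 50.5%).

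In O. latifolia, 39 of the 45 probes were called lower than the mean of the other genotypes at 0 mM (27.9% of all probes) and 39 at 120 mM (23.4%). The difference was below 0, called or not, in 42 probes at 0 mM and 40 at 120 mM (40.4% and 41.6% of all probes). At 120 mM the count was again 39 without the 8 arrays (28.2%), and 16 and 21 without replicates 1 and 3. At 0 mM 18 probes were lower by at least 4 log2 units, of which AK060851 was well above background on 1 of the 3 O. latifolia arrays and AK061711 and AK119534 on none. The share of all probes that were lower by as much is not given here. Probes of one locus did not agree. For LHCII type I, AK060851 was at −7.69 ± 0.75, measured on that 1 array and dim on the other 2, and AK104281 was at −3.49 ± 0.70, while AK104350 was at 0.10 ± 0.25 and AK104288 at −0.13 ± 0.39. For Os03g0592500, AF061577 was at −5.86 ± 0.62 and AF022739 at −0.95 ± 0.30. For Os11g0242800, AK061295 was at −6.13 ± 0.63 and AK104824 at −1.15 ± 0.25. By contrast all 11 probes of Os07g0562700 were between −6.58 and −5.34. The probes were designed on cultivated rice, and how mismatches of O. latifolia transcripts to the probes bear on these values was not tested.

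Os07g0562700 shows the size of the gap. Its probe AF022738 read 9.75, 16.35 and 9.51 in O. latifolia at 120 mM and 9.84, 10.44 and 10.54 at 0 mM. The 16.35 is the array labelled replicate 2, which lies nearest PSBRc50. The other 40 arrays lay at 14.95 or above. For 21 of the 45 probes the 5 remaining O. latifolia arrays lay below all 40 arrays of the other genotypes. The share of all probes with such a gap is not given here, so this count cannot be set against it. Probes AK061711, AK066291 and AK119534 were not well above background on any of the 3 O. latifolia arrays at 0 mM, and there only a bound can be given, from each array's lowest signal well above background: AK061711 and AK066291 of Os02g0764500 were at least 19.6-fold and at least 9.61-fold lower, and AK119534 of CP29 at least 149-fold lower. At 120 mM they were well above background only on the array labelled replicate 2, which lies nearest PSBRc50.

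**Figure D4:**
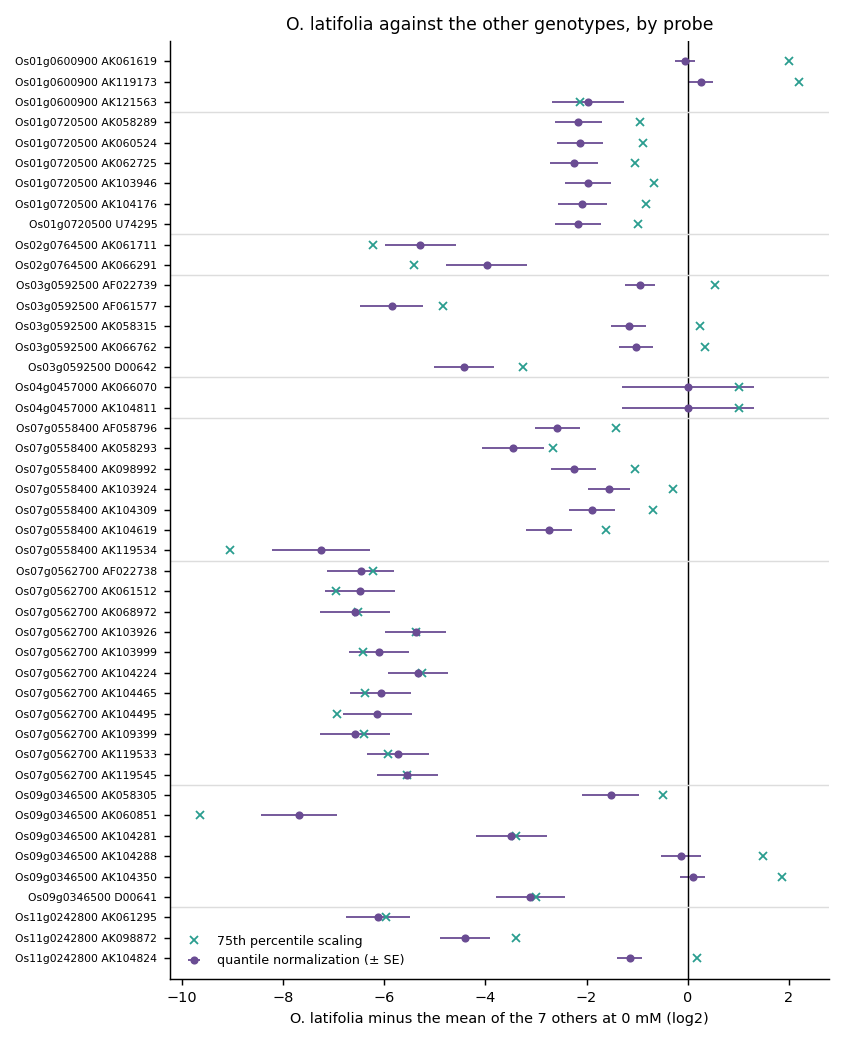
Difference of each light-harvesting probe between O. latifolia and the mean of the 7 other genotypes at 0 mM NaCl (log2 units), with quantile normalization (circles, ± SE) and with scaling to the 75th percentile (crosses). Within Os09g0346500, AK104281 lies at −3.49 and AK104350 at 0.10 with quantile normalization, AK060851, AK061711, AK066291 and AK119534 rest on dim O. latifolia spots, and 10 crosses lie right of 0.

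These values depend on the scaling. With each array scaled to its 75th percentile, 25 probes were called lower at 0 mM (32.9% of all probes) and 25 at 120 mM (28.2% of all probes), and 4 and 3 were called higher. The 4 at 0 mM were AK061619 (1.99) and AK119173 (2.21) of Os01g0600900 and AK104350 (1.87) and AK104288 (1.48) of LHCII type I, all of which were within 0.5 log2 units of the others with quantile normalization. The 11 probes of Os07g0562700 were lower under both scalings. The median over all probes at 0 mM was 0.54 under either.

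Os04g0457000 had the widest range of the 9 representative probes, 4.64 to 15.41. In BRRIdhan 29 its probe AK104811 read 4.64 and 5.79 at 120 mM, against 7.04, 15.41 and 9.68 at 0 mM. The 15.41 belongs to the array labelled BRRIdhan 29 replicate 2, which lies nearer IR58. In turn IR58 read 13.95, 14.34 and 14.29 at 120 mM, against 14.48 and 9.56 at 0 mM, where the 9.56 belongs to the array labelled IR58 replicate 2, which lies nearer BRRIdhan 29. In O. rufipogon 6.78, 14.20 and 6.12 were read at 120 mM, against 15.04, 7.07 and 13.86 at 0 mM, so low and high seedlings occurred in both groups, and none of these 6 arrays lay nearer another genotype. All arrays of the 5 other genotypes were at 11.57 or above. The second probe, AK066070, correlated with AK104811 at 1.00 over the 46 arrays. Between genotypes at 120 mM the locus was called (adjusted p = 0.0012), and it was not at 0 mM (adjusted p = 0.39). No salt effect of this locus was called, and its mean salt effect was 0.14 without BRRIdhan 29.

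**Figure D5:**
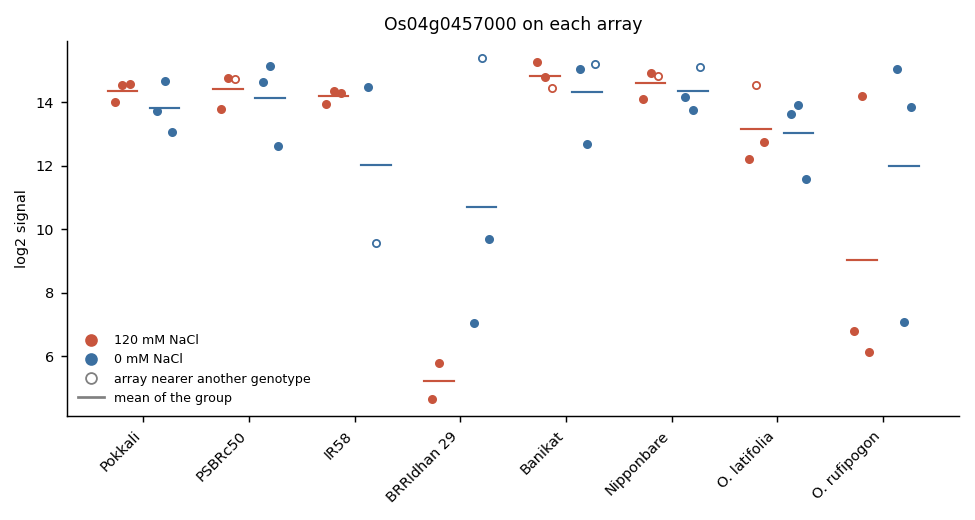
Log2 signal of Os04g0457000 (probe AK104811) on each array, by genotype, with 120 mM NaCl left of 0 mM, bars at group means and open circles for the 8 arrays nearer another genotype. Arrays below 10 occur in BRRIdhan 29, in O. rufipogon at both concentrations and on 1 array labelled IR58.

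The loci did not follow one another equally. Over the 46 arrays CP29 and Os11g0242800 correlated at 0.91, CP29 and Os01g0720500 at 0.87, and CP29 and Os03g0592500 at 0.86. Without O. latifolia, over 40 arrays, these were 0.86, 0.74 and 0.80. LHCII type I correlated with the other 8 loci at 0.03 to 0.49, and Os04g0457000 with the others at 0.05 to 0.32. Without O. latifolia these were 0.04 to 0.57 and 0.04 to 0.38. Each locus was read by its brightest probe, and the 6 probes of LHCII type I correlated with each other at 0.08 to 0.92 over the 46 arrays. These arrays share genotypes, slides and the normalization, so the values describe the arrays only.

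Other loci of the photosynthetic apparatus were read from lists assembled from general knowledge, of which the study's tables annotate only 3 loci. In each list but those of chlorophyll breakdown and of 2 regulators, most mean salt effects lay below 0, as in the antenna set. Of all 42477 probes, 303 were called lower and 521 higher for the mean salt effect. Of 9 photosystem I core loci all 9 were below 0 (median −0.40) and 2 fell, Os08g0560900 by 0.72 (± 0.17, adjusted p = 0.025) and Os12g0189400 by 0.69 (± 0.17, adjusted p = 0.033). Of 7 photosystem II subunit loci all 7 were below 0 (median −0.21) and 1 fell, Os08g0119800 by 0.60 (± 0.16, adjusted p = 0.038). Without the 8 arrays Os08g0560900 was still called (adjusted p = 0.027), whereas Os12g0189400 (adjusted p = 0.10) and Os08g0119800 (adjusted p = 0.15) were not.

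Of 9 loci of chlorophyll synthesis none was called and 8 were below 0 (median −0.42), with the largest estimates in Os10g0496900 (−0.76 ± 0.51) and Os03g0323200 (−0.58 ± 0.17, adjusted p = 0.061). Chlorophyll breakdown went the other way: all 6 loci were above 0 (median 0.56) and 2 rose, Os09g0532000 by 1.14 ± 0.26 (adjusted p = 0.018) and Os03g0146400 by 1.06 ± 0.22 (adjusted p = 0.010). Both were also called without the 8 arrays. The 8 further antenna loci outside the set were all below 0 (median −0.17) with none called, the largest estimates being −0.30 ± 0.24 for Os09g0439500 and −0.21 ± 0.31 for Os01g0869800. Of the 2 listed regulators of antenna genes, Os01g0239000 gave 0.09 ± 0.14 and Os06g0348800 −0.06 ± 0.21. These loci were read by 1 probe each, the brightest, and over all probes the median was −0.01.

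Markers of green tissue and of root were read beside the antenna set. The 4 loci listed for the Rubisco small subunit were all below 0 with none called (median −0.20), the largest being −0.45 ± 0.47 for Os12g0291400 and −0.32 ± 0.29 for Os12g0292400. Os12g0274700, which the study's tables annotate as this subunit, gave −0.02 ± 0.13. Their mean level, each centred on its own mean, ran between −2.52 and 0.96 on the 120 mM arrays and between −1.66 and 0.95 on the 0 mM arrays, and it correlated with that of the 9 antenna loci at 0.79 over 46 arrays and at 0.60 over the 40 without O. latifolia. Of 9 root marker loci 8 were below 0 with none called (median −0.52), the largest being −1.81 ± 0.59 for Os07g0448400 and −1.07 ± 0.40 for Os04g0521100. Their mean level ran between −1.35 and 1.23 at 120 mM and between −1.95 and 2.73 at 0 mM and correlated with the antenna level at 0.36. None of the 9 was at background on all arrays, and Os02g0112100 was well above background on 12 of the 46. The part of tissue shares in the antenna values was not tested.

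Among 15627 probes of other loci that were well above background on every array, those most like the mean of the 9 antenna loci were probes of Os09g0481200 (r = 0.88 over 46 arrays), Os08g0119800 (0.88), Os01g0869800 (0.88), Os02g0175800 (0.87) and Os08g0162600 (0.87), followed by Os04g0459500 with 2 probes (0.86 each), Os05g0150800, Os03g0343900 and Os04g0234600 (0.86 each). Without O. latifolia these correlations were 0.65 to 0.82. The study's tables annotate 1 of them, Os04g0459500, as a GADPH fragment.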

How the data were processed

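The authors deposited, for each of the 46 arrays, the scanner software's processed signal intensity of every spot (Agilent Feature Extraction, background-subtracted, not normalized between arrays), and a table of log2 values for 42475 probes, which by the methods is quantile-normalized. Other deposited intensity columns used were the median signal and the median background. Array annotation follows rice genome build 5 of IRGSP. The reference table (locus names) matched 0 of the 9 loci, so no coordinates are given.

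The log2 of the processed intensity was quantile-normalized over 43734 spots that are not controls, spots marked as outliers were left out (0.0562% of values) and spots of 1 probe averaged. Background calls are the scanner software's marks, taken per probe from a share of 0.5 of its spots upwards. Differences were tested with limma 3.58.1 in R 4.3.3 (lmFit and eBayes) on 16 group means, with Benjamini-Hochberg adjustment over all 42477 probes and a threshold of 0.05. Seedlings were the replicates. Named pathway loci are up to 4 called ones per list with the largest effects, or up to 2 if none was called, and likeness used the 10 highest correlations. The members and lists were chosen with earlier results of these data known. The fit was tested on simulated data.

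The alternatives comprised the authors' log2 table, array scaling at the 75th percentile, background correction by normexp with an offset of 50, a filter on dim probes, outlier spots kept, blocks for replicate number, slide or scan day, and leaving out replicates, genotypes, both wild species or the arrays nearer another genotype. Same-numbered arrays of a genotype correlated at −0.03 to 0.46 in their deviations from group means, so the numbers were not taken to pair samples.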

Additional observations from a re-analysis of the deposited data

Results flagged for a closer look

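Without the 8 arrays nearer another genotype, 20 of 44 light-harvesting probes differed between genotypes in their salt effect by limma's F test, which is what brought this result here. With all 46 arrays the count was 0. The groups hold 2 or 3 arrays, too few to look for single outlying arrays within a group.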

How the results depend on the processing

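Under the alternatives, 309 of 342 counts of called probes stayed within 1.5 times the main count, a count of 0 included. The share of all probes called is given for only some of these fits. Counts that stand without it cannot be compared with the array as a whole. The mean salt effect (0 called) gave 5 without Banikat, 3 without the array labelled O. latifolia 120 mM replicate 2, and 12 without the 8 arrays nearer another genotype and Banikat 0 mM replicate 2, an alternative chosen after seeing the data. Without each replicate number in turn it stayed 0, with medians of −0.57 to −0.03. The median was below 0 under all 24 alternatives that give it. The difference of the salt effect between genotypes (0 called) gave 1 without O. latifolia, 1 without both wild species, 1 without the array labelled O. latifolia 120 mM replicate 2 and 20 without the 8 arrays. With alternatives chosen after seeing the data it gave 10 without Banikat 0 mM replicate 2 as well and 21 with the slide as a block, and it was 0 to 2 without each replicate number. Between genotypes (38 at 0 mM, 32 at 120 mM) the counts were 1 and 4 without O. latifolia and 0 and 3 without both wild species. They were 27 and 26 with 75th-percentile scaling, and 21 to 33 and 0 to 39 without each replicate number. For O. latifolia they were 35 to 38 at 0 mM and 16 to 39 at 120 mM without each replicate number.

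Within genotypes (0 called), BRRIdhan 29 gave 1 without the 8 arrays, 8 without Banikat 0 mM replicate 2 as well and 1 with the slide as a block. Banikat gave 3 and, with the slide as a block, 8. Under the 2 alternatives chosen after seeing the data Nipponbare gave 1 and 1, and without Banikat 0 mM replicate 2 PSBRc50 gave 2, O. latifolia 1 and O. rufipogon 1. Leaving out each replicate number gave 0 to 1 in O. latifolia and 0 to 2 in O. rufipogon. Fits that leave 1 array in a group assume that it varies like the others.

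Among the 9 representative probes, Os01g0600900 turned above 0 with 75th-percentile scaling (0.13, where the median of all probes was 0.11), with normexp (0.014), without BRRIdhan 29 (0.037) and without the 8 arrays (0.0075), and ran from −0.17 to 0.038 without each replicate number. Os04g0457000 turned without BRRIdhan 29 (0.14) and ran from −1.39 to 0.16 without each replicate number, and Os02g0764500 from −1.25 to 0.025. None of these was called. With the replicate block, 0 probes were called for the mean salt effect, 37 between genotypes at 0 mM and 34 at 120 mM, 39 for O. latifolia at both concentrations, and 0 for every salt contrast. The median over all probes moved to 0.11 with 75th-percentile scaling.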

Other observations

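The probe whose signal followed Os04g0457000 most closely over the 46 arrays, of 41394 compared, was that of Os04g0456400 (r = 0.81). The next were Os10g0126000 (0.79), Os06g0331500 (0.75) and 2 probes of Os02g0216300 (0.74 and 0.73). At the other end were Os06g0658400 (−0.73) and Os11g0247800 (−0.70). This comparison was chosen after the values of Os04g0457000 had been seen, and correlations over arrays of 8 genotypes share the differences between genotypes.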
